A study of Homo sapiens with 6 samples.

Results

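The genes described here belong to the machinery that repairs DNA and signals its damage, read in HepG2 cells, an established line from a human liver tumour, labelled as hepatocellular carcinoma. They are 40 genes of homologous recombination, the Fanconi pathway, mismatch repair, excision repair, end joining and checkpoint signalling, chosen by name. These genes and all lists read beside them were chosen with earlier results of these data known. Every probe of a listed gene was read. Of the 40 genes, 37 had a probe with their symbol, and 35 had at least 1 probe above background (a detection p below 0.05 on 3 or more of 6 arrays), among 11542 genes tested in all. BRCA2, FANCA and FANCD2 were not analysed here. RAD50 and ATR did not pass the background filter on any of their 1 and 3 probes.

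Cells of the control group received the solvent DMSO alone and cells of the other group sorafenib, a drug that blocks RAF kinases and growth factor receptors, at a labelled dose of 3 mM; both were collected after 24 h. Micromolar doses are usual in culture and the files do not allow the unit to be checked. Each group had 3 BeadChip arrays, on which biotin-labelled RNA is read as probe intensity. Whether replicates came from separate cultures is not stated, so the p-values rest on spread among arrays that may be technical, and the number of arrays limits precision. Mean intensity lay between 739 and 1050 per array, 19440 to 20138 of 47323 probes were above background, and log2 values correlated at 0.991 to 0.995 within and 0.975 to 0.985 between groups. All 8 hepatocyte marker genes with a listed probe were above background. Of these, 2 rose and 2 fell, against 11% and 14.3% of all genes, the furthest being APOB at 0.53 and TF at -0.61. Of 8 markers of blood, endothelial, stromal and muscle cells, PTPRC, CD3E, COL1A1, COL3A1, PECAM1 and HBB were not above background. CD68 and ACTA2 were, the latter with a change of -0.65 ± 0.08.

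Cells answer different lesions with different pathways. Homologous recombination copies a broken stretch from the sister chromatid and the Fanconi pathway unhooks crosslinks between strands, so both are used mainly while DNA is being replicated. Nucleotide excision repair cuts out bulky lesions, base excision repair removes single altered bases, mismatch repair corrects replication errors and end joining religates breaks without a template. The kinases ATM, ATR, CHEK1 and CHEK2 sense damage and hold the cell cycle. Many recombination and Fanconi genes are transcribed through E2F factors in proliferating cells, while several excision genes, DDB2 and XPC among them, are known p53 targets.

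Sorafenib was accompanied by small changes in few of these genes. With a call at an adjusted p under 0.05 (limma, Benjamini-Hochberg over all genes), 5 of the 35 genes tested were called, against 25.3% of all genes. EXO1, BLM and ERCC3 rose (3 of 35, against 11% of all genes) and ERCC1 and ERCC5 fell (2 of 35, against 14.3%). At an unadjusted p under 0.05, 8 of 35 were higher and 4 lower, against 18.5% and 20.6% of all genes. The log2 changes ran from -0.39 to 0.39. The median of the absolute changes was 0.16 for the set and 0.20 for all genes, and the signed medians were 0.09 and 0.00. The 3 sorafenib arrays lay above the 3 control arrays for 10 genes and below them for 5, against 21.6% and 23.3% of all genes, so that the groups did not overlap for 15 of 35 genes and for 44.9% of all genes. For 30 of the 35 genes no change was called. The 95% interval of the change lay within 0.50 on either side of 0 for 27 genes of the set and within 1 for all 35. Of all 11542 genes, 6138 lay within 0.50 and 10498 within 1. The set was read at a higher median level (10.37, against 9.32 for all genes) and with a smaller median SE (0.083, against 0.101). In these bulk samples fewer cells of a kind and less RNA per cell cannot be told apart.

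**Figure D1:**
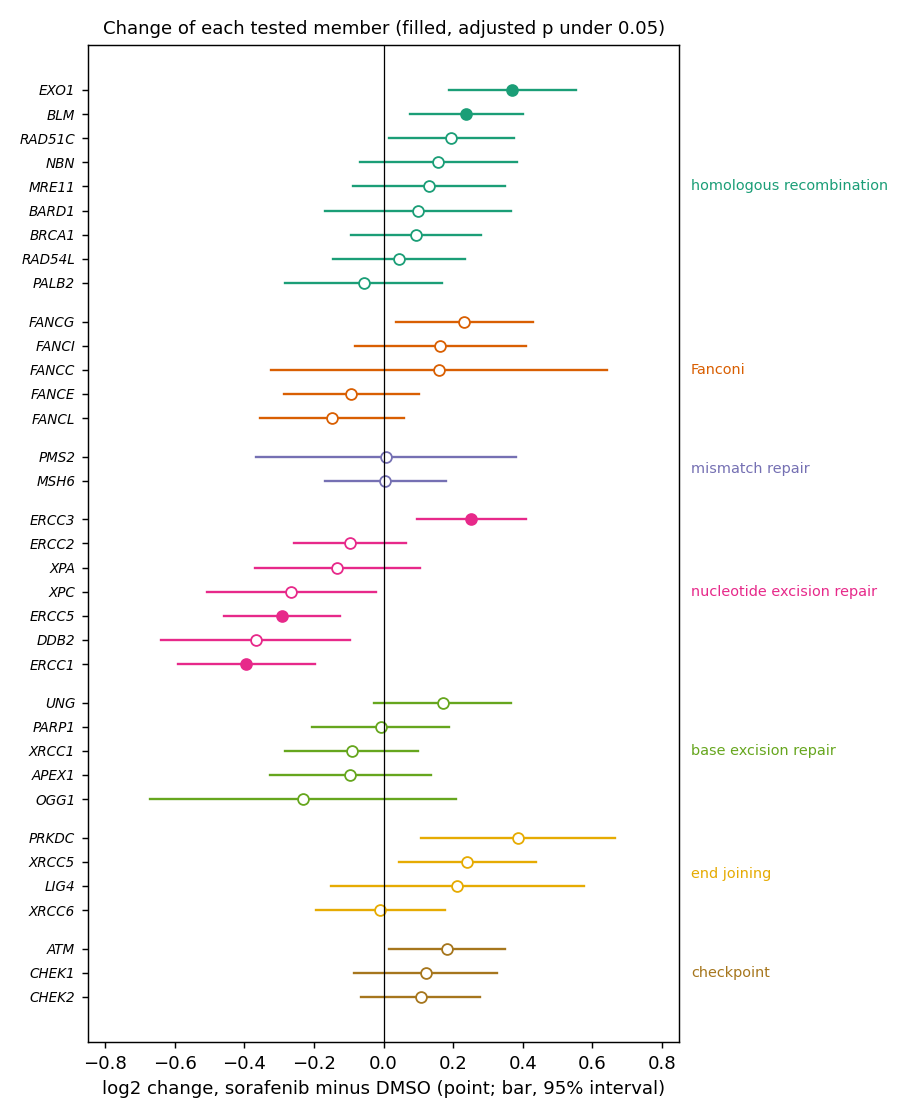
Log2 change (sorafenib minus DMSO, horizontal axis) of the 35 genes tested, grouped by pathway, with points for the estimate and bars for its 95% interval; filled points have an adjusted p under 0.05. All estimates lie between -0.39 and 0.39, 6 of the 7 nucleotide excision genes lie below 0, and 8 of the 9 recombination genes lie above it. Of all 11542 genes tested, 5752 lie below 0 and 5788 above it.

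The promoters of the 5 called genes are shown because transcription of these genes starts there. They are taken from RefSeq on build GRCh38.p14, 250 bases before to 50 bases after an annotated start, on the strand of the gene. Capitals mark matches on either strand to an E2F motif (TTTGGCGC, TTTCCCGC, TTTCGCGC or TTTGCCGC), to the CCAAT box (CCAAT) or to an ETS motif (CCGGAAGT), none of which overlapped in these 5 windows. Where RefSeq lists several starts, the one with the most matched bases is given. The windows are chr1:241847954-241848253 for EXO1 and chr15:90717096-90717395 for BLM, both on the plus strand, chr2:127294095-127294394 for ERCC3 and chr19:45423479-45423778 for ERCC1, both on the minus strand, and chr13:102845782-102846081 for ERCC5 on the plus strand.
EXO1: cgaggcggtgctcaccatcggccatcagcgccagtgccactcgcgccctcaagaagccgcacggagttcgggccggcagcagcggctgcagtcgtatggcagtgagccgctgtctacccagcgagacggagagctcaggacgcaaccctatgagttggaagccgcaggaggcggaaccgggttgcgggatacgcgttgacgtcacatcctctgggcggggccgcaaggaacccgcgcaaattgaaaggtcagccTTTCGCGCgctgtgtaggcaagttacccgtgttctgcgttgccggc
BLM: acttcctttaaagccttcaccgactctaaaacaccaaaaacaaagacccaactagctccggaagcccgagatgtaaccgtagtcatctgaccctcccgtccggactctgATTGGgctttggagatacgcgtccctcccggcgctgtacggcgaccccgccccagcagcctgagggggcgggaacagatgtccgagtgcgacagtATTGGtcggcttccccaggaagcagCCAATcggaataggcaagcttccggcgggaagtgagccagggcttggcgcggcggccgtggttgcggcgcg
ERCC3: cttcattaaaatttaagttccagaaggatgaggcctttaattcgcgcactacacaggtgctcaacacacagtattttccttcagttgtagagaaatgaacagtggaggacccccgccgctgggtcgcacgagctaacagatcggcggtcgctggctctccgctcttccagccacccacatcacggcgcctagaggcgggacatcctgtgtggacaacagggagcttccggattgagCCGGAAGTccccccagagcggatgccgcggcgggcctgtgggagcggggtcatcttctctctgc
ERCC1: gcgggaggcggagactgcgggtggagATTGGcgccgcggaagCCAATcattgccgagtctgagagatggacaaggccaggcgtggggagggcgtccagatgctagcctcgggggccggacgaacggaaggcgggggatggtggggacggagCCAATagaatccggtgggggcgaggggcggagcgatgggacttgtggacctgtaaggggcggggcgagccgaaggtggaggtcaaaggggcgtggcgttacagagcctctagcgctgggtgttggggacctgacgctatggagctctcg
ERCC5: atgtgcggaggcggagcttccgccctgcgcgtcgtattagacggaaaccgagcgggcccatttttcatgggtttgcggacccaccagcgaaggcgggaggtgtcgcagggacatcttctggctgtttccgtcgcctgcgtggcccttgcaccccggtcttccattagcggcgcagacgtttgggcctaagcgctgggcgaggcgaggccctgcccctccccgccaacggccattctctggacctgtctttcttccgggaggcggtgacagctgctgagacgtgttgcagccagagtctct

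The window of EXO1 held an E2F match, TTTCGCGC, just after the annotated start, and no other match. That of BLM held 3 CCAAT boxes and that of ERCC3 an ETS match, CCGGAAGT. The printed window of ERCC1 held 3 CCAAT boxes and no ETS match, though an ETS match stood in another of its 3 listed promoters. The window of ERCC5 held none of these letters. Of the 35 genes tested, 31 had a promoter in the RefSeq table. An E2F match stood in at least 1 promoter of 7 of them, against 3.99% of the 27305 genes in the table and 3.31% of its 35116 promoters. A CCAAT box stood in 19 (39.7% of genes, 34.6% of promoters) and an ETS match in 6 (4.95% of genes, 4.14% of promoters). These shares are not like for like. The RefSeq table also holds genes not tested here, and a gene with more listed promoters has more places for a match. Whether the set differs from the table was not tested. The 7 genes with an E2F match were EXO1, FANCC, MSH6, PMS2, XPC, UNG and XRCC6, of which EXO1 alone was called. A match is a run of letters and does not show that a factor binds.

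Among the recombination genes, EXO1, an exonuclease that resects broken ends and also serves mismatch repair, was the gene that rose most. Its normalized log2 intensity was 9.87, 9.85 and 9.98 on the control arrays and 10.20, 10.33 and 10.27 on the sorafenib arrays. The groups did not overlap, and the lowest sorafenib array stood above the highest control array. The log2 change of EXO1 was 0.37 ± 0.08 (moderated SE, 3 arrays a group; limma, adjusted p = 0.0157), or 1.29-fold. A dimmer probe of EXO1, read at 7.08 to 7.51 in controls and 7.17 to 7.72 with sorafenib, gave 0.22 ± 0.17 and overlapping groups. With the mean of both detected probes the change was 0.29 and missed the threshold (adjusted p = 0.108). It also missed it without control replicate 1 (adjusted p = 0.0501), control replicate 2 (0.0599) or sorafenib replicate 2 (0.0608), and after median scaling of the arrays (0.119).

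BLM, a helicase that resolves joined DNA molecules after recombination and is mutated in Bloom syndrome, read 8.56, 8.56 and 8.53 with DMSO and 8.77, 8.74 and 8.85 with sorafenib. Its groups did not overlap and its control arrays lay close together. BLM rose by 0.24 ± 0.07 (adjusted p = 0.0443), 1.18-fold. The call was at the edge of the threshold: it was lost with the replicate number as a block (adjusted p = 0.0504) and without any single array (adjusted p = 0.0926 to 0.112).

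The other recombination genes were not called. BRCA1 and BARD1, which together form a ubiquitin ligase at breaks, differed by 0.09 ± 0.08 and 0.10 ± 0.11. PALB2, which joins BRCA1 to BRCA2 at breaks, differed by -0.06 ± 0.09. RAD51C, which acts in late steps of recombination, differed by 0.19 ± 0.08 (adjusted p = 0.107) on its brightest probe, where the groups did not overlap. Its 2 other detected probes gave -0.04 and -0.09. RAD54L, a motor protein that remodels chromatin during recombination, differed by 0.05 ± 0.08. MRE11 and NBN, subunits of the complex that first binds breaks, differed by 0.13 ± 0.09 and 0.16 ± 0.10. The other detected probes gave 0.05 and -0.21 for MRE11 and -0.02 for NBN. Over the 9 recombination genes tested, 2 rose and none fell, against 11% and 14.3% of all genes, and the median was 0.13.

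**Figure D2:**
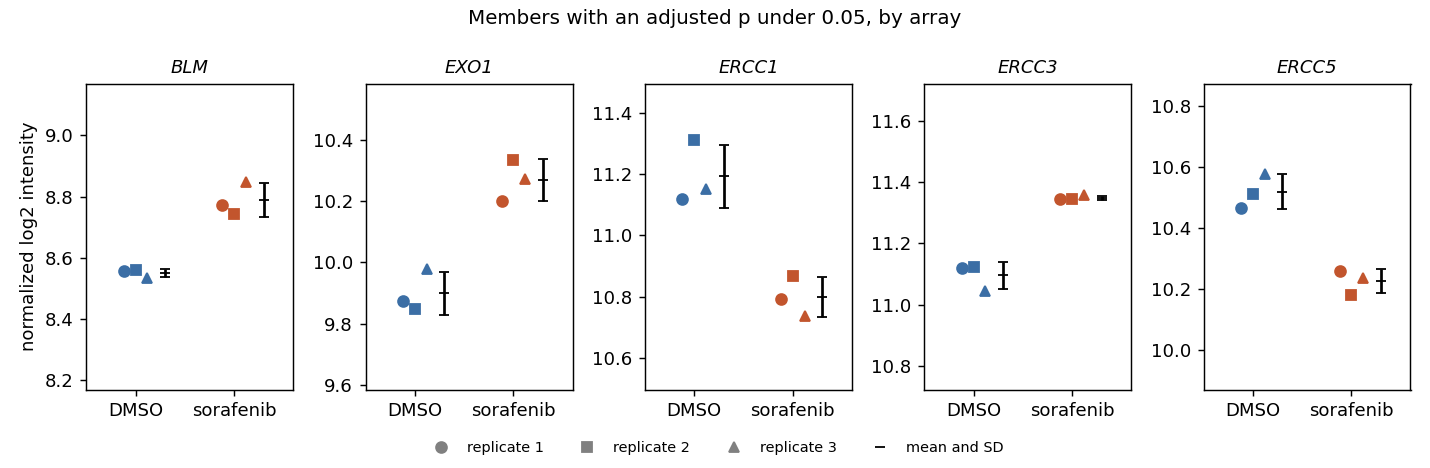
Normalized log2 intensity (vertical axis, 1 unit tall in each panel) of the 5 called genes on each array, with symbols for the replicate number and bars for the mean and SD of 3 arrays. BLM, EXO1 and ERCC3 stand higher on every sorafenib array than on any DMSO array, and ERCC1 and ERCC5 stand lower.

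Genes of DNA replication and mitosis were read beside them, from a list chosen with earlier results of these data known. Of 13 S phase and mitosis markers tested, 7 rose and none fell, against 11% and 14.3% of all genes, with a median of 0.44. At an unadjusted p under 0.05, 10 were higher, against 18.5% of all genes, and none lower. RRM2, a subunit of ribonucleotide reductase, rose by 1.22 ± 0.16 and the proliferation marker MKI67 by 0.81 ± 0.10. Their part in the changes of EXO1 and BLM was not tested.

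No Fanconi gene of the set was called (limma), against 25.3% of all genes. At an unadjusted p under 0.05, 1 of 5 was higher, against 18.5% of all genes. FANCG, a scaffold of the core complex, had the largest change, with 10.68, 10.59 and 10.74 on control arrays and 10.79, 10.95 and 10.96 on sorafenib arrays. Its groups did not overlap, by a narrow margin, and the difference was 0.23 ± 0.08 (adjusted p = 0.0849). FANCI, which is ubiquitylated together with its partner at a stalled fork, differed by 0.16 ± 0.10. FANCL, the ubiquitin ligase of the core complex, differed by -0.15 ± 0.09, and FANCE, another core subunit, by -0.09 ± 0.08. FANCC, also of the core complex, was read close to background, with detection p between 0.00390 and 0.0312, and differed by 0.16 ± 0.20.

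Both mismatch repair genes of the set had estimates near 0. MSH6, a subunit of the mismatch sensor, differed by 0.01 ± 0.07, with a 95% interval from -0.17 to 0.18. PMS2, which nicks the strand to be corrected, read 7.01, 6.99 and 7.18 with DMSO and 6.76, 7.06 and 7.38 with sorafenib. The sorafenib arrays of PMS2 spread on both sides of the controls, and its interval was wider, from -0.37 to 0.38. Its 2 other probes were under a detection p of 0.05 on no array, with lowest values of 0.0740 and 0.0805. Just inside the filter, a dim probe of UNG passed on 3 arrays with p of 0.0247, 0.0338 and 0.0299. Each of the 35 genes was represented by a probe detected on all 6 arrays.

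Nucleotide excision repair was the pathway of the set with the largest share of estimates below 0, 6 of 7. Base excision repair had a similar share, 4 of 5, with PARP1 at -0.01 among them. Of all 11542 genes, 5752 had estimates below 0. Among other genes of these pathways, given below, 8 of 12 nucleotide excision and 4 of 16 base excision genes did. Of the 7 nucleotide excision genes, 2 fell and 1 rose, against 14.3% and 11% of all genes, and the median change was -0.27. The sorafenib arrays lay below all control arrays for 5 of the 7, against 23.3% of all genes. At an unadjusted p under 0.05, 4 were lower and 1 higher, against 20.6% and 18.5% of all genes.

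ERCC1, the partner of the nuclease that cuts on one side of the lesion, read 11.12, 11.31 and 11.15 with DMSO and 10.79, 10.87 and 10.74 with sorafenib. The groups did not overlap, and the highest sorafenib array lay well below the lowest control array. ERCC1 fell by 0.39 ± 0.08 (SE, n = 3; limma, adjusted p = 0.0167), to 0.761 of the control level. ERCC1 was measured by 4 detected probes, all lower with sorafenib, with changes from -0.46 to -0.31. When all detected probes were tested one by one, 3 of them passed, where 21.7% of probes did. Of those that passed, 2 were bright, at -0.39 and -0.31. The third was read close to background, with detection p of 0.0312 to 0.0455 on the sorafenib arrays. The probe that did not pass was dim too, read at 6.46 to 7.03 in controls and 6.09 to 6.66 with sorafenib. ERCC1 missed the threshold without control replicate 2 (adjusted p = 0.0564), without sorafenib replicate 1 (0.0504) and with median scaling (0.178).

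ERCC5, the nuclease that cuts on the other side, read 10.47, 10.51 and 10.58 with DMSO and 10.26, 10.18 and 10.24 with sorafenib. Each sorafenib array lay below each control array. ERCC5 fell by 0.29 ± 0.07 (adjusted p = 0.0253), to 0.816 of the control level. Without single arrays the adjusted p was 0.0756 (control replicate 2), 0.0681 (control replicate 3) and 0.0578, 0.0911 and 0.0556 (sorafenib replicates 1, 2 and 3).

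ERCC3, a helicase of the transcription factor TFIIH that opens DNA around the lesion, moved the other way. It read 11.12, 11.12 and 11.05 with DMSO and 11.34, 11.34 and 11.36 with sorafenib. The sorafenib arrays were nearly equal and all above the controls. ERCC3 rose by 0.25 ± 0.07 (adjusted p = 0.0338), 1.19-fold, and missed the threshold without any single array (adjusted p = 0.0717 to 0.0989). The change of ERCC3 in those fits was 0.23 to 0.27, and fewer of all genes were called in them. ERCC2, the other TFIIH helicase, differed by -0.10 ± 0.07 (adjusted p = 0.339), although its sorafenib arrays all lay below its controls.

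No lesion sensor was called. DDB2, which finds ultraviolet damage in chromatin, read 7.94, 8.06 and 8.06 with DMSO and 7.71, 7.82 and 7.43 with sorafenib. Its groups did not overlap and sorafenib replicate 3 was the lowest array. The difference was -0.37 ± 0.11 (adjusted p = 0.0562), and it passed without background correction (-0.24, adjusted p = 0.0449) and on the authors' processed values (-0.25, adjusted p = 0.0445). XPC, which recognizes distorted helices, differed by -0.27 ± 0.10 (adjusted p = 0.105), with groups that did not overlap. XPA, which verifies the lesion, differed by -0.13 ± 0.10 with overlapping groups. Of 13 p53 target genes tested beside them, 3 fell and 1 rose, against 14.3% and 11% of all genes, with a median of -0.20. SESN1, a stress-induced regulator of growth signalling, fell by 0.90 ± 0.09 and the kinase gene PLK3 rose by 0.87 ± 0.14. PLK3 was read close to background in controls, at 5.71, 5.41 and 5.80. It was detected on 2 control arrays and on all 3 sorafenib arrays. The part of the p53 targets in the values of DDB2 and XPC was not tested.

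No base excision gene of the set was called, and none had an unadjusted p under 0.05 (limma). Of all genes, 18.5% were higher and 20.6% lower at that unadjusted p. OGG1, the glycosylase that removes oxidized guanine, had the largest estimate, with 9.04, 9.07 and 9.52 on control arrays and 8.74, 8.91 and 9.30 on sorafenib arrays. Replicate 3 was the highest array in both groups and the groups overlapped. The difference was -0.23 ± 0.18 (adjusted p = 0.397). Within same-numbered pairs it was -0.31, -0.16 and -0.22. A block for replicate number gave an SE of 0.07 (adjusted p = 0.0557). UNG, which removes uracil, differed by 0.17 ± 0.08 (adjusted p = 0.179), and its dim probe gave -0.12. PARP1, which marks strand breaks with poly(ADP-ribose), differed by -0.01 ± 0.08, with an interval from -0.20 to 0.19. XRCC1, the scaffold that PARP1 recruits, differed by -0.09 ± 0.08 and APEX1, the endonuclease at sites without a base, by -0.10 ± 0.10.

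The end joining genes were not called either (limma), and 2 of 4 were higher at an unadjusted p under 0.05, against 18.5% of all genes. PRKDC, the catalytic subunit of the DNA-dependent protein kinase, read 10.55, 10.59 and 10.64 with DMSO and 11.22, 10.91 and 10.80 with sorafenib. The groups did not overlap, and sorafenib replicate 1 stood highest and apart from the other two. The difference was 0.39 ± 0.12 (adjusted p = 0.0530). Without sorafenib replicate 1 it was 0.26 (adjusted p = 0.0891). PRKDC passed without sorafenib replicate 3 (0.47, adjusted p = 0.0360), without background correction (0.36, adjusted p = 0.0230) and with eBayes with trend and robust (adjusted p = 0.0129). Its 3 other detected probes gave 0.12, 0.29 and 0.40, none called.

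XRCC5 and XRCC6 encode the partners in the Ku ring that slides onto broken ends, and their estimates differed. XRCC5 differed by 0.24 ± 0.08 (adjusted p = 0.0755), with groups that did not overlap, and XRCC6 by -0.01 ± 0.08; the difference between them was not tested. LIG4, the ligase of the pathway, differed by 0.21 ± 0.15.

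No checkpoint kinase tested was called (limma), and 1 of 3 was higher at an unadjusted p under 0.05, against 18.5% of all genes. ATM, which is activated at breaks, read 10.07, 9.94 and 10.02 with DMSO and 10.20, 10.19 and 10.19 with sorafenib. The sorafenib arrays were nearly equal and all above the controls, and the difference was 0.18 ± 0.07 (adjusted p = 0.104). The other detected probe of ATM gave 0.20 ± 0.10. CHEK1, the effector kinase of ATR, differed by 0.12 ± 0.09 and CHEK2, that of ATM, by 0.11 ± 0.07. The probe of RAD50 had detection p between 0.634 and 0.962 and the 3 probes of ATR between 0.155 and 0.994, which does not show whether these genes are expressed.

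**Figure D3:**
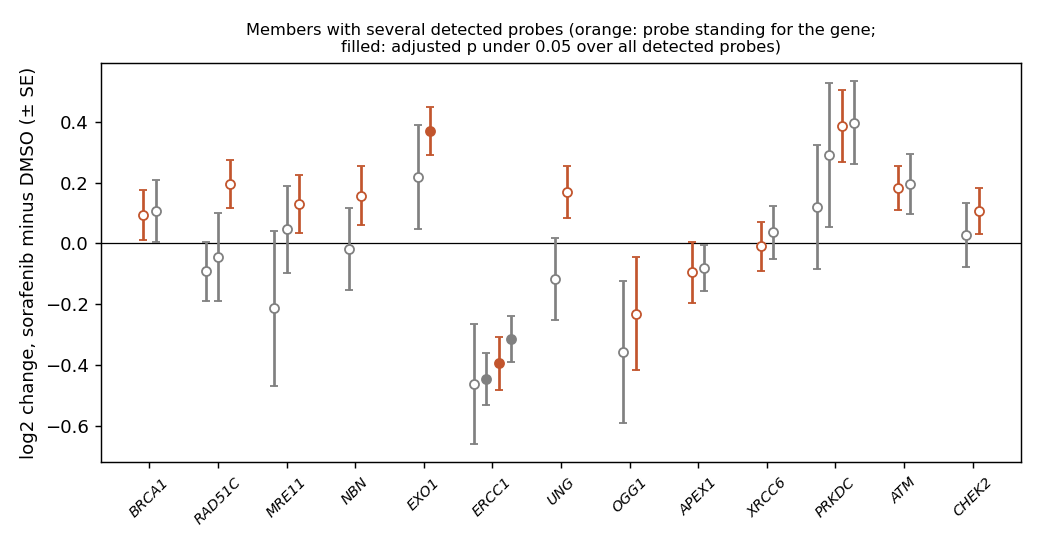
Log2 change (sorafenib minus DMSO, vertical axis, with SE) of each detected probe of the 13 genes with more than 1, with the probe that stands for the gene in orange and filled points for an adjusted p under 0.05 over all detected probes. The 4 probes of ERCC1 lie between -0.46 and -0.31, and the probes of RAD51C, MRE11, NBN, UNG and XRCC6 fall on both sides of 0.

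Probes of the same gene did not always move together. Of 69 listed probes of the set, 54 were detected, and 13 genes had at least 2 of them. All probes were higher for BRCA1, EXO1, PRKDC, ATM and CHEK2 and all were lower for ERCC1, OGG1 and APEX1. They were of mixed sign for 5 genes. The mixed estimates were not called for any probe of those 5 genes.

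Other genes of the same pathways, taken from a wider list, were read in the same fit. Of 82 tested, 10 rose and 3 fell, against 11% and 14.3% of all genes, and the median change was 0.10. Their median absolute change was 0.19, against 0.20 for all genes. Whether they differ from the set was not tested. ERCC4 is counted under 2 pathways and once in the total. None of the 18 recombination genes was called (limma). At an unadjusted p under 0.05, 5 were higher and 1 lower, against 18.5% and 20.6% of all genes. With the replicate number as a block, 3 of them, GEN1, XRCC2 and XRCC3, were called higher. That fit called 31.9% of all genes in either direction. Of 9 Fanconi genes, 3 rose and 1 fell, against 11% and 14.3% of all genes. UBE2T, the ubiquitin-conjugating enzyme that works with FANCL, rose by 0.45 ± 0.07 (adjusted p = 0.00675), the core subunit FANCB by 0.51 ± 0.10 (adjusted p = 0.0144) and the nuclease FAN1 by 0.45 ± 0.09. SLX4, a scaffold for crosslink nucleases, fell by 0.64 ± 0.16 (adjusted p = 0.0283).

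Of 16 base excision genes, 4 rose and none fell, against 11% and 14.3% of all genes. At an unadjusted p under 0.05, 5 were higher and 3 lower, against 18.5% and 20.6% of all genes. The 4 called were the glycosylase genes NEIL2 (0.62 ± 0.09, adjusted p = 0.00433) and NEIL3 (0.38 ± 0.10, adjusted p = 0.0352), the flap endonuclease FEN1 (0.51 ± 0.09, adjusted p = 0.00839) and the ligase LIG3 (0.35 ± 0.07, adjusted p = 0.0171). Of 12 nucleotide excision genes, 1 fell and none rose, against 14.3% and 11% of all genes. At an unadjusted p under 0.05 (limma), 3 of these 12 were lower and 1 higher, against 20.6% and 18.5% of all genes. CETN2, a partner of XPC, fell by 0.61 ± 0.08 (adjusted p = 0.00338). CETN2 read 13.53, 13.42 and 13.62 with DMSO and 12.94, 12.94 and 12.88 with sorafenib, so its groups lay far apart relative to their spread. Of 6 mismatch repair genes, 1 was called, against 25.3% of all genes. RFC1, the large subunit of the clamp loader, fell by 0.40 ± 0.07 (adjusted p = 0.00835).

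Of 15 checkpoint genes, 3 rose and none fell, against 11% and 14.3% of all genes. TIPIN, which protects stalled forks and helps activate CHEK1, read 8.38, 8.43 and 8.33 with DMSO and 8.96, 9.08 and 9.01 with sorafenib. Its groups lay far apart, and it rose by 0.64 ± 0.07 (adjusted p = 0.00233). CDC25A, a phosphatase that CHEK1 restrains, rose by 0.62 ± 0.11 (adjusted p = 0.00939), and RAD9A, a subunit of the clamp that marks damage for ATR, by 0.50 ± 0.12 (adjusted p = 0.0257). None of 7 end joining genes was called (limma), and 1 was higher at an unadjusted p under 0.05, against 18.5% of all genes. Of the 13 called genes, CDC25A, FEN1, NEIL2, TIPIN, UBE2T and CETN2 were called in all 18 alternative settings. FANCB, RFC1 and SLX4 were called in 17, 16 and 15, FAN1 and LIG3 in 14 each, RAD9A in 13 and NEIL3 in 12. SLX4 was lost without control replicate 2, sorafenib replicate 1 or sorafenib replicate 2. FAN1 was lost without sorafenib replicate 2 or either of control replicates 1 and 2, and LIG3 without control replicate 1 or sorafenib replicate 2. RAD9A was lost without control replicate 1 or 3 or sorafenib replicate 2 or 3, and NEIL3 without control replicate 2 or 3 or sorafenib replicate 2 or 3. With the mean of a gene's probes, LIG3 and RFC1 were lost. Median scaling lost FANCB, RFC1, FAN1, LIG3, RAD9A and NEIL3, and leaving out the filter on dim probes lost NEIL3.

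**Figure D4:**
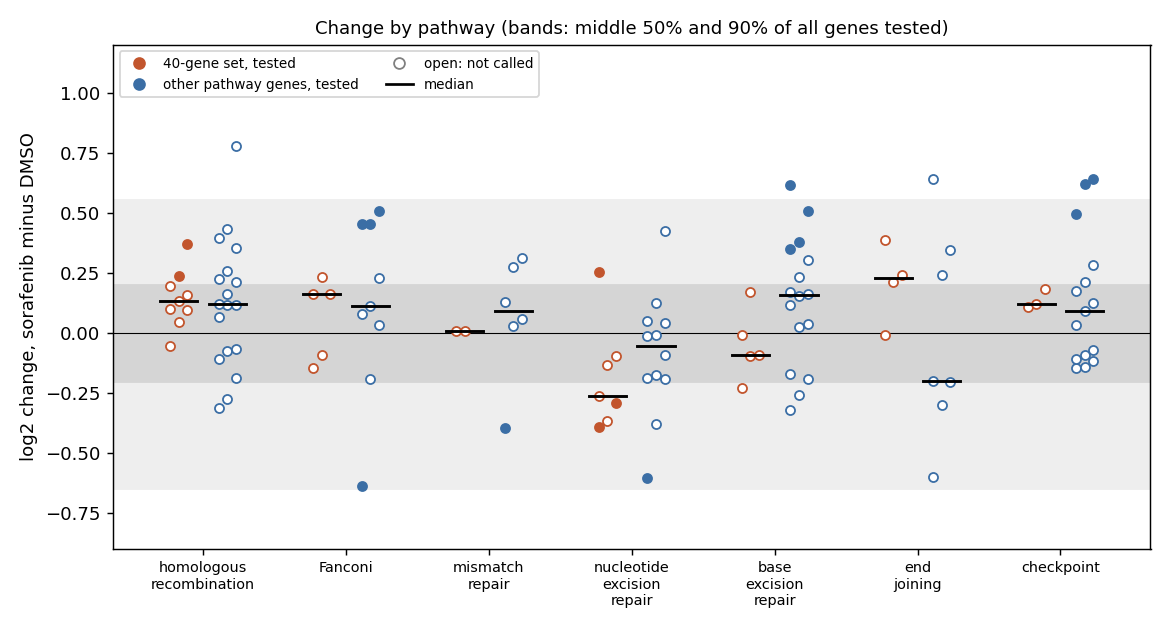
Log2 change (sorafenib minus DMSO, vertical axis) of the 35 genes of the set (orange) and of the wider list (blue) by pathway, filled where called, with black bars for medians and grey bands for the middle 50% and 90% of all genes tested. The genes of the set lie within the 90% band, from -0.65 to 0.55, and the called genes of the wider list outside the set include TIPIN at 0.64 and SLX4 at -0.64.

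**Figure D5:**
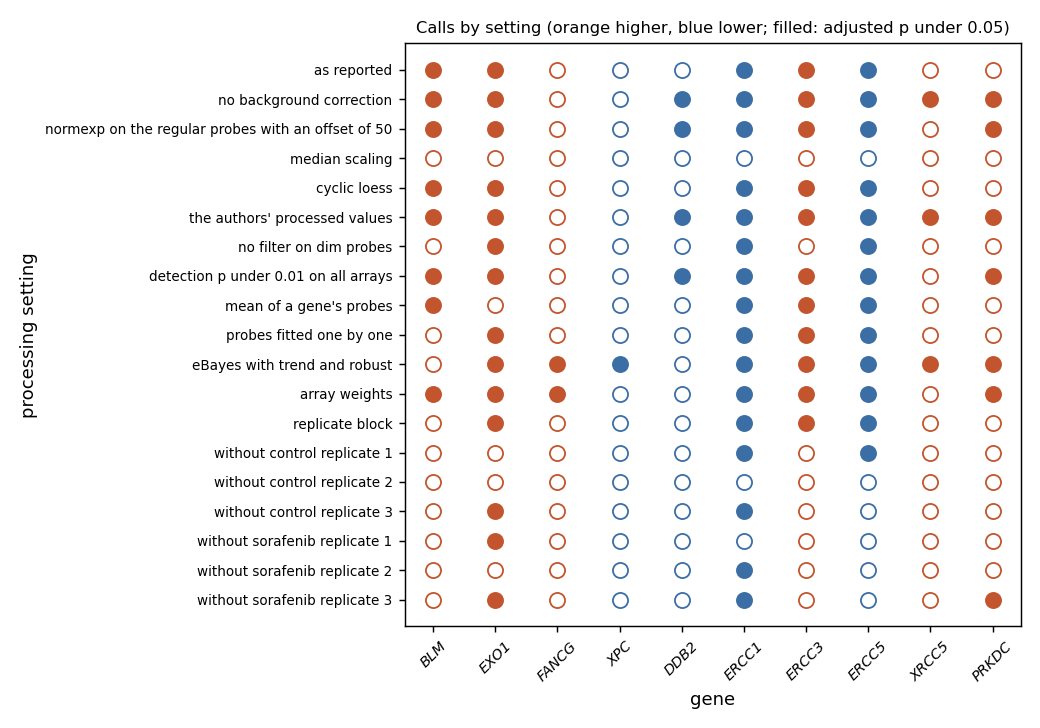
Calls under each processing setting (rows) for the 10 genes called in at least 1 of them (columns), orange where the change was upward and blue where downward, filled where the adjusted p was under 0.05. ERCC1 is filled in 15 of the 18 alternatives and BLM in 7, and with median scaling no gene is filled.

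The direction of each of the 5 called genes was the same in the 18 alternative settings, and the call was not. The share of all genes called ranged from 11.6% to 32% over these settings. ERCC1 was called in 15 of them, EXO1 in 13, ERCC5 in 12, ERCC3 in 10 and BLM in 7. PRKDC, DDB2, XRCC5, FANCG and XPC, not called as reported, were called in 7, 4, 3, 2 and 1 of them. The other 25 genes of the set were called in none.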

How the data were processed

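Biotin-labelled cRNA of HepG2 cells was hybridised to Illumina Expression BeadChips, per the labels. The authors deposited a probe intensity, not normalized per the file headers, and a detection p-value per probe, and processed values on a log2 scale. The latter equal quantile normalized log2 intensities within 5e-07. The 40 genes and all lists were chosen with earlier results of these data known.

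Intensities were background corrected with limma's neqc (negative controls inferred from detection p-values, offset 16), quantile normalized and log2 transformed. Probes with detection p under 0.05 on at least 3 of 6 arrays were kept, 20120 of 47323. Symbols came from the platform annotation (30113 probes with 1 symbol, 8 with several, 17202 with none), of which 30074 matched RefSeq GRCh38.p14 gene numbers. A gene was represented by its detected probe with the highest mean. Sorafenib was compared with control by lmFit and eBayes over 11542 genes, two-sided, with Benjamini-Hochberg adjustment; errors are moderated SE, and intervals cover 95%. Probe changes come from a fit of all detected probes, one by one.

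Values by array are given for called genes and for the largest change in each pathway without a call. Of the wider list, up to 3 called genes per pathway are named, plus the largest in the opposite direction. FAN1, LIG3, XRCC2, TDP1 and the array values of DDB2, CETN2 and TIPIN were chosen after their values were seen. Deviations from group means correlated at 0.304, 0.296 and 0.416 between arrays of equal number, above the limit of 0.1, so the numbers met the limit for pairs, from the data alone; the reported fit has no block, and the block is an alternative. The 18 alternatives were other background corrections, normalizations, filters, probe rules, variance models and weights, the block, and leaving out each array. The fit was also run on simulated data with independent noise and few changed genes. That setting differs from these data, so it does not bear on the calls. Versions were R 4.3.3, limma 3.58.1, statmod 1.5.0, Python 3.11.15 and matplotlib 3.10.9.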

Additional observations from a re-analysis of the deposited data

How the results depend on the processing

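The genes of the set that rose numbered 3, and 5 with eBayes with trend and robust, with array weights, with no background correction or with the processed values of the authors, 1 with no filter on dim probes, and 0 with median scaling (limma; 2 higher and 2 lower at an unadjusted p under 0.05). Without single arrays they numbered 0 to 2. The share of all genes called, in either direction, moved as well. It was 25.3% as reported, 30.2% with trend and robust, 32% with array weights, 29.5% without background correction and 29.3% on the authors' processed values. It was 31.9% with the replicate block, 11.6% with no filter on dim probes, 13.3% with median scaling and 14.2% to 20.7% without single arrays. The genes of the set that fell numbered 2, 0 with median scaling and 0 to 2 without single arrays. Fitted one by one, 4 probes fell. In the wider list the count that rose was 6 with median scaling and 7 to 11 without single arrays. The count that fell was 6 without background correction, 5 with normexp and an offset of 50, 5 on the authors' processed values, 7 with trend and robust, 7 with array weights and 2 to 5 without single arrays. With the replicate block, 2 genes of the set rose and 2 fell, and in the wider list 15 rose (with GEN1, TOPBP1, UVSSA, XRCC2 and XRCC3 added) and 4 fell (with MUTYH added). Within the set, the block changed the call of BLM and no other.

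Signs turned only among genes with no call and estimates near 0, apart from MRE11. MRE11 was -0.0119 with the mean of its probes. MSH6 was -0.0284 with array weights and PMS2 -0.009 with median scaling. PARP1 was 0.0389 with median scaling, 0.0061 with cyclic loess and 0.0018 with array weights. XRCC6 was 0.0292 with median scaling and 0.0137 with the mean of its probes. Without single arrays MSH6 ranged from -0.0326 to 0.0409, PMS2 from -0.15 to 0.16, PARP1 from -0.0533 to 0.0578 and XRCC6 from -0.0609 to 0.0283. Of 629 pairs of gene and alternative, 561 kept both direction and call. The cause of these differences was not tested. Dim probes such as those of FANCC and PMS2 limit what could be detected.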

Other observations

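In the wider list, XRCC2 and TDP1 were not called as reported; XRCC2 was called higher with median scaling and with the replicate block. XRCC2, a recombination gene, read 9.06, 8.47 and 9.05 with DMSO and 10.34, 9.33 and 9.24 with sorafenib. TDP1, which removes trapped topoisomerase from DNA ends, read 8.94, 8.72 and 9.13 with DMSO and 10.32, 9.22 and 9.17 with sorafenib. In both, sorafenib replicate 1 was the highest array and control replicate 2 the lowest. This pattern was picked out after the values were seen, and its share among all genes was not counted.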
